A study of Homo sapiens with 9 samples.

Results

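The 8 genes described here are A2M, LRP1, APOE, APOD, CLU, CST3, ITIH5 and ITIH6, which encode secreted carriers and protease inhibitors and 1 receptor for several of them. They were taken by symbol from a table of 18364 genes measured in 9 tumours, and all 8 were found. They were chosen with the difference between the 2 tumour groups in view, so that difference is given for them as a description, without a test. LN229, a human cell line long established from a glioblastoma, had been implanted intracranially into nude mice. For 6 tumours the implanted cells were LN229-4SA, which carry TAZ-4SA (TAZ is a co-activator of transcription in the Hippo pathway), and for 3 they were LN229-EV, with the empty vector (EV). All were collected when the hosts reached the terminal stage, and every host was a nude mouse, in which T cells are largely absent. The labels give neither the age of the mice nor whether each cell line was a clone or a pool, and they do not tie a tumour to an animal. Values are CPM, the reads of a gene scaled to the total of its library, recovered from the deposited log2 CPM by removing the small prior that the table adds.

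Alpha-2-macroglobulin, the product of A2M, is a large secreted protein that traps proteases of every class, and LRP1 (LDL receptor related protein 1) is the endocytic receptor that clears the loaded complex. LRP1 also takes up apolipoprotein E, the main lipid carrier of the brain, made chiefly by astrocytes. Apolipoprotein D is a small lipocalin, clusterin (apolipoprotein J) is a secreted chaperone, and cystatin C, the product of CST3, is an extracellular inhibitor of cysteine cathepsins. ITIH genes encode heavy chains that, in the family members studied most, are bound to hyaluronan and stabilise it in the matrix.

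WWTR1, the gene of TAZ, stood at 218 to 449 CPM in the TAZ-4SA tumours and at 116 to 123 CPM in EV. The TAZ-4SA libraries held between 3144861 reads (tumour 6) and 31468135 reads (tumour 4), with 2990 to 7365 genes at 0 reads, against 505 to 622 in EV. Among the markers of glioma, VIM lay at 1480 to 2910 CPM in TAZ-4SA and 1616 to 2092 CPM in EV, whereas OLIG2 was at 0 reads in TAZ-4SA tumours 1, 2 and 6 and SOX2 in tumours 3 and 4. The summed level of the 8 glioma markers, of which VIM was the most abundant, was 2237 to 3493 CPM in TAZ-4SA and 3451 to 3849 CPM in EV, but single markers differed in opposite directions. EGFR lay at 279 to 512 CPM in TAZ-4SA and 8.15 to 12.4 CPM in EV, NES at 99.9 to 258 and 1290 to 1360 CPM, and FABP7 at 0 to 16.0 and 276 to 370 CPM. Neuronal markers (7 of 7 in the table) summed to 1008 and 1351 CPM in TAZ-4SA tumours 5 and 6, the libraries with the fewest reads, to between 118 and 262 CPM in the other TAZ-4SA tumours and to between 90.7 and 235 CPM in EV. Astrocyte markers (8 of 8) summed to 61.6 to 216 CPM in TAZ-4SA and 223 to 320 CPM in EV, oligodendrocyte markers (6 of 6) to 29.9 to 381 and 543 to 658 CPM, pericyte markers (5 of 5) to 88.1 to 275 and 1637 to 2134 CPM, and endothelial markers (6 of 7) to 0.101 to 13.2 and 12 to 16.9 CPM. Single genes carried some of these sums. In EV the astrocyte sum was mostly S100B, at 163 to 250 CPM against 0 to 10.4 CPM in TAZ-4SA, whereas GJA1 was higher in each TAZ-4SA tumour (28.9 to 61.0 CPM) than in EV (16.6 to 21.7 CPM) and GFAP and SLC1A3 overlapped. The pericyte sum of EV was mostly CSPG4, at 1499 to 2087 CPM against 40.3 to 173 CPM, and PDGFRB and RGS5 overlapped. The microglia and macrophage markers (7 of 12) summed to 65.7 to 178 CPM in TAZ-4SA and 28.1 to 39.5 CPM in EV. CD68 was the largest part of that sum in each TAZ-4SA tumour, at 32.9 to 142 CPM against 12.6 to 22.7 CPM in EV. TMEM119, CSF1R and ITGAM overlapped. The 3 liver markers analysed of 7 summed to 0 to 12.1 CPM in TAZ-4SA and 143 to 191 CPM in EV, nearly all of it TF. P2RY12, MOG, MOBP, TTR and SERPINA1 were at 0 reads in each TAZ-4SA tumour, but they were low in EV too. There P2RY12 had 0.0581 to 0.193 CPM, MOG 0.0645 to 0.174, MOBP 0.407 to 0.838, SERPINA1 0.281 to 1.16 and TTR 1.12 to 3.08 CPM. In TAZ-4SA tumours 5 and 6 a single read is 0.280 and 0.306 CPM, so their 0 reads say little about such levels. In bulk tumours, fewer cells of a type and less RNA per cell cannot be told apart, and reads from mouse cells were not separated here.

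**Figure D1:**
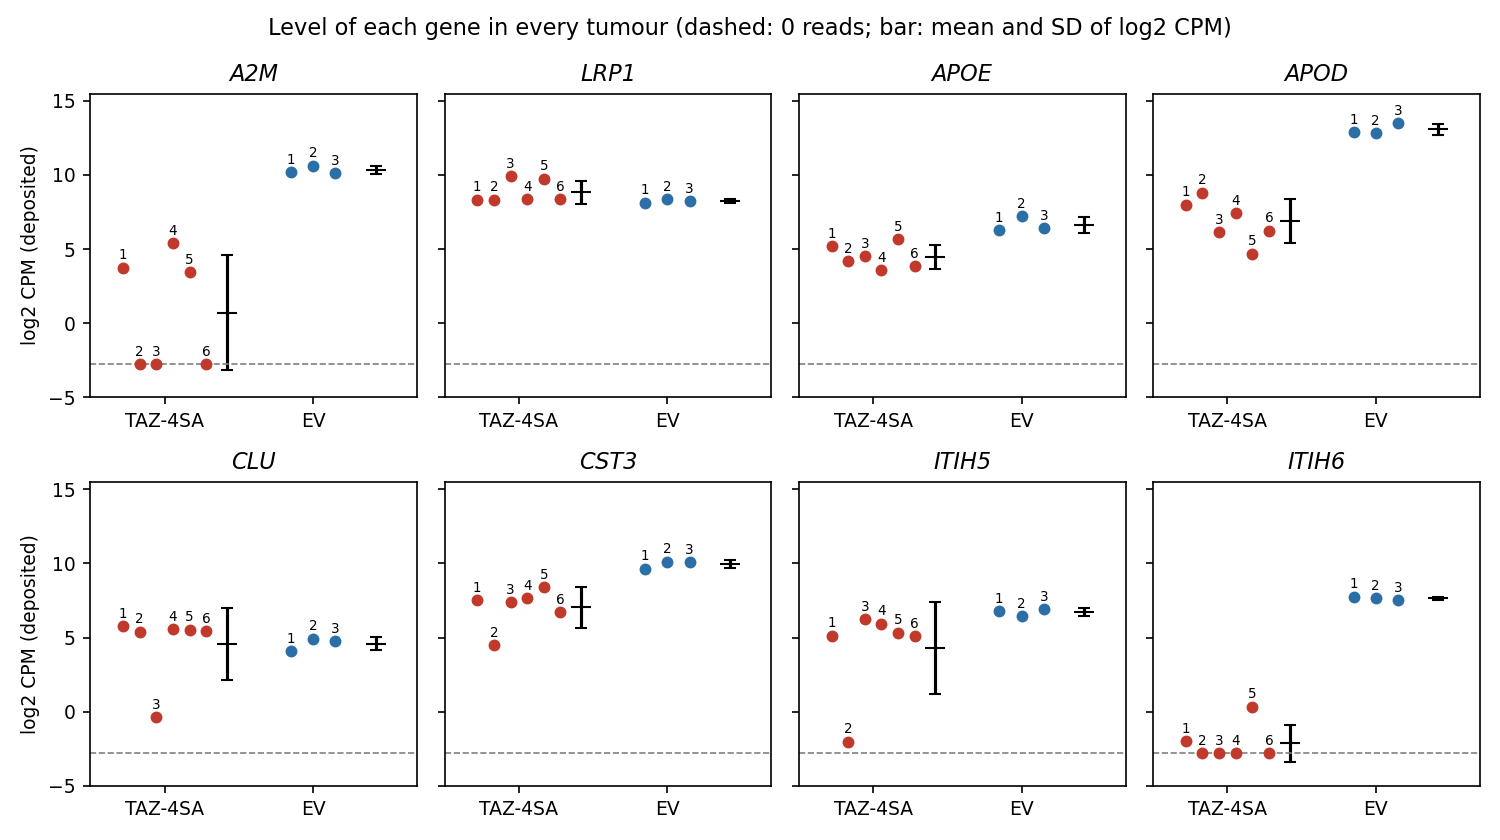
Deposited log2 CPM of the 8 genes (vertical axis) in each TAZ-4SA tumour (red, n = 6) and EV tumour (blue, n = 3), with replicate numbers beside the points and the mean and SD of log2 CPM as a black bar; the dashed line is the value of 0 reads. APOD, CST3, APOE, A2M, ITIH5 and ITIH6 have every TAZ-4SA point below every EV point, and LRP1 and CLU overlap.

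Each TAZ-4SA tumour held less APOD, A2M, ITIH6, CST3, APOE and ITIH5 RNA than any EV tumour, and the levels of LRP1 and CLU overlapped between the groups. For 6 of the 8 genes every TAZ-4SA value lay below every EV value, an arrangement that 21.3% of the 15578 genes tested also show. Because the genes were picked on this contrast, nothing is read from that count. Over all genes tested, the limma fit called 13.3% lower and 9.02% higher at an adjusted p of 0.05, which is the background for the related genes counted further on. The median log2 difference of the 8 genes was -2.68, beside -0.85 over all genes tested. That overall shift depends on scaling, with a median of -0.15 after quantile normalization, and relative to the median of -0.85 the log2 difference of LRP1 was 1.45, of CLU 0.81 and of APOE -1.28.

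**Figure D2:**
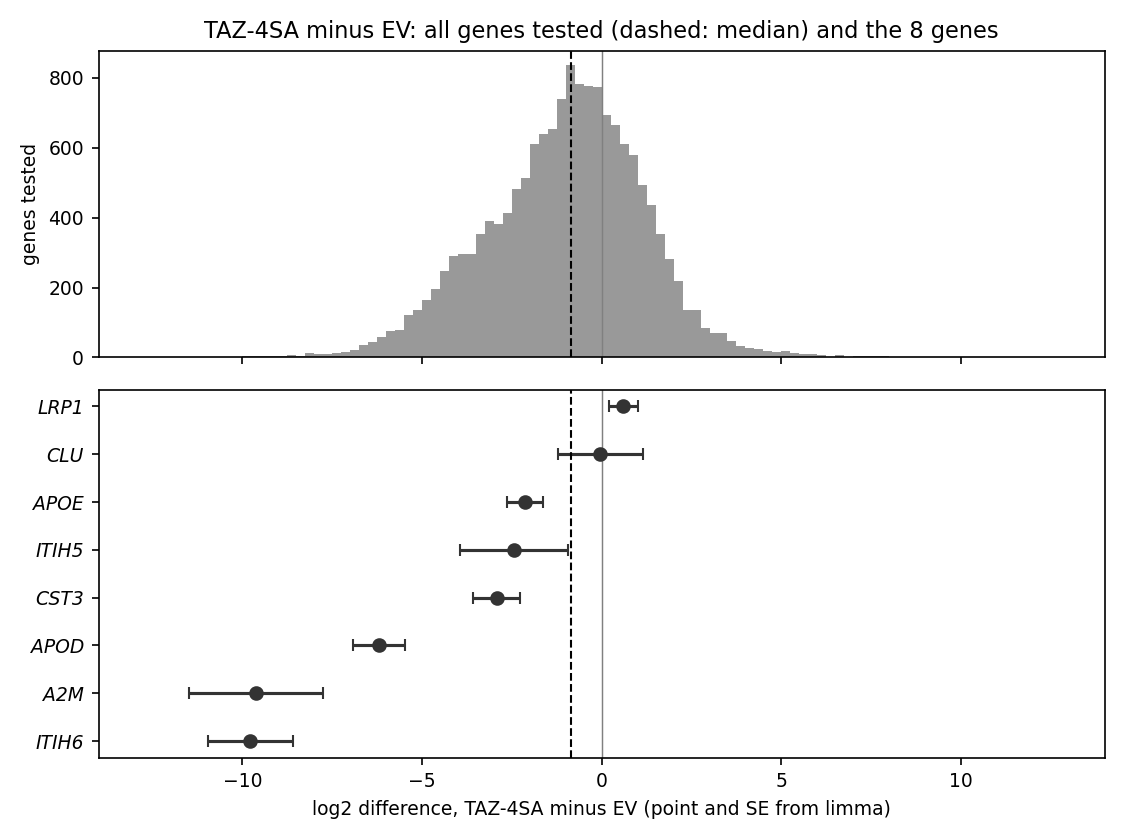
Upper panel, number of genes (vertical axis) by log2 difference, TAZ-4SA minus EV (horizontal axis), for the 15578 genes tested; lower panel, the log2 difference of each of the 8 genes with its SE. The differences run from -9.78 for ITIH6 to 0.60 for LRP1, and the dashed line marks the median of all genes, -0.85.

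A2M RNA was abundant in every EV tumour and low or without a read in the TAZ-4SA tumours. The gene (Entrez gene 2) lies on chromosome 12 from 9067708 to 9116229 on the minus strand (GRCh38). The EV tumours had 1171, 1593 and 1117 CPM. TAZ-4SA tumours 1, 4 and 5 had 13.3, 42.2 and 10.6 CPM, and tumours 2, 3 and 6 had 0 reads, which at a floor of 3 reads allows up to 0.303, 0.184 and 0.917 CPM. The TAZ-4SA tumours thus fell into 3 with a low level and 3 without a read, and tumour 4, with 1174 reads of A2M, was the highest. Genes with 0 reads in at least 1 TAZ-4SA tumour made up 45.2% of those tested. By mean CPM the EV level of 1294 ± 261 (SD, n = 3) was 117 times the TAZ-4SA level of 11 ± 16.4 (SD, n = 6). With the reads of each group pooled, EV had 70.2 times the reads of TAZ-4SA at equal depth. The fitted log2 difference was -9.61 ± 1.86 (SE), larger than the ratio of means because the tumours at 0 reads enter at the value of the prior. At a pseudocount of 2 CPM it was -7.64. With single tumours left out it ran from -8.92 without TAZ-4SA replicate 2, 3 or 6 to -10.22 without replicate 1 and -10.55 without replicate 4. An antisense gene, A2M-AS1, overlaps A2M, and its reads cannot be separated by strand in these libraries. It was listed at 0.562 to 0.93 CPM in EV and at 0 reads in all 6 TAZ-4SA tumours.

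LRP1, the receptor, did not follow A2M. It spans chromosome 12 from 57128483 to 57213361 on the plus strand. The EV tumours had 279, 327 and 301 CPM, and TAZ-4SA tumours 1, 2, 4 and 6 had 321, 320, 326 and 331 CPM. Tumours 3 and 5 stood apart at 957 and 866 CPM. In 4 TAZ-4SA tumours LRP1 was therefore within or just above the range of EV, and the mean of 520 ± 304 CPM (SD, n = 6) rests on the other two. The log2 difference was 0.60 ± 0.40 (SE). Tumour 3 had 15563 reads of LRP1 and tumour 5 had 3094, so neither value is limited by depth. The gene overlaps STAT6 on the opposite strand, which stood at 0.123 to 33.7 CPM in TAZ-4SA and 58.9 to 83.0 CPM in EV. The promoter window of LRP1, 250 bases before to 50 bases after its start as given by RefSeq, is shown because this gene kept its level while most of the others were lower. It lies at chr12:57128233-57128532 on the plus strand (GRCh38.p14), and capitals mark GGGCGG, a GC box, on either strand, here once.
LRP1: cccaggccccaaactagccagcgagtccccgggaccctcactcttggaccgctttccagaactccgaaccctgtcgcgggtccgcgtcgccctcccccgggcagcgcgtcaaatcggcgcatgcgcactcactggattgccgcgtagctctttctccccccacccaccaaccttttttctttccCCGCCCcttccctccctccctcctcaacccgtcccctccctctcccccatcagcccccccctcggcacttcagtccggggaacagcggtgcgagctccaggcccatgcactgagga

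The chaperone that escorts LRP1 through the endoplasmic reticulum and keeps ligands off it, encoded by LRPAP1, fell. LRPAP1 had 418, 506 and 481 CPM in the EV tumours and 46.9, 17.0, 60.8, 67.4, 63.0 and 44.0 CPM in TAZ-4SA tumours 1 to 6. The groups did not overlap, and the limma log2 difference was -3.35 ± 0.42 (SE, adjusted p = 0.0002046). CD109, a cell-surface relative of alpha-2-macroglobulin, rose from 19.1 ± 3.04 to 136 ± 25.1 CPM (limma log2 difference 2.82 ± 0.30, adjusted p = 5.943e-05). Complement C3, another thioester protein of the same superfamily, rose from 42.9 ± 28.8 to 239 ± 132 CPM (limma adjusted p = 0.007006), with a log2 difference of 2.69 that was 1.84 without EV replicate 1, and with array weights it was not called (adjusted p = 0.09896). C5, the third thioester-family gene tested, fell from 8.21 ± 2.57 to 0.0933 ± 0.229 CPM (limma adjusted p = 0.002497), with 0 reads in 5 TAZ-4SA tumours.

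**Figure D3:**
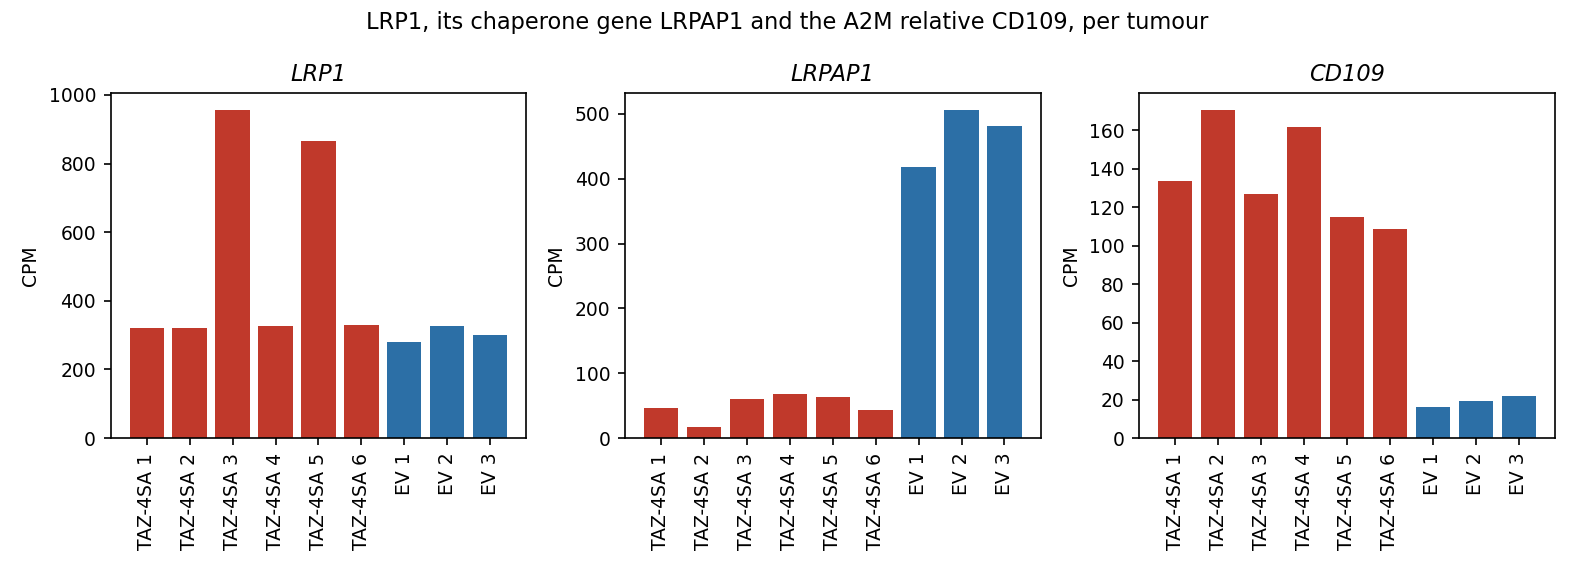
CPM (vertical axes, from 0) of LRP1, LRPAP1 and CD109 in each tumour, TAZ-4SA in red and EV in blue. LRP1 is high in TAZ-4SA tumours 3 and 5 and near the EV level in the other TAZ-4SA tumours, LRPAP1 is lower in all 6, and CD109 is higher in all 6.

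Among 19 LDL receptor family and chaperone genes tested, 1 was called higher and 3 lower (LRPAP1, LRP5 and LRP3), and 15 were not called. LRP8, the reelin and apolipoprotein E receptor also called ApoER2, rose from 33.6 ± 10.6 to 93.3 ± 23.2 CPM (limma adjusted p = 0.01098), but was not called without EV replicate 1 (adjusted p = 0.08015) or EV replicate 2 (adjusted p = 0.06654). The Wnt co-receptor gene LRP5 fell from 279 ± 80.3 to 43.5 ± 33.2 CPM (limma adjusted p = 0.00972).

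APOD showed the largest difference in CPM of the 8 genes. The gene (chromosome 3 from 195568705 to 195583940, minus strand) had 7605, 7297 and 11499 CPM in EV tumours 1 to 3. TAZ-4SA tumours 1 to 6 had 256, 446, 69.3, 171, 25.5 and 75.2 CPM. All TAZ-4SA values lay far below EV, yet they spread 17.5-fold between tumour 2, the highest, and tumour 5, the lowest, against 1.58-fold within EV. The means were 8801 ± 2342 CPM (SD, n = 3) and 174 ± 157 CPM (SD, n = 6), a log2 difference of -6.20 ± 0.73 (SE). Per kilobase of transcript, APOD was the most abundant of 15107 genes with a known length in each of the 3 EV tumours, and it was also first per kilobase of coding sequence. In TAZ-4SA its rank per kilobase ran from 109 in tumour 2 to 3287 in tumour 5.

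APOE was lower by a smaller factor. Its level (chromosome 19 from 44905796 to 44909393, plus strand) was 76.2, 148 and 84.7 CPM in EV and 37.0, 17.9, 22.6, 11.8, 50.4 and 14.1 CPM in TAZ-4SA tumours 1 to 6. The groups came closest between TAZ-4SA tumour 5 and EV tumour 1 and did not overlap. The means of 103 ± 39.5 and 25.6 ± 15.1 CPM (SD) correspond to a log2 difference of -2.13 ± 0.51 (SE). Among the TAZ-4SA tumours the summed astrocyte markers followed the order of APOE only in part. Tumour 5 was highest in both and tumour 4 lowest in both (216 and 61.6 CPM of astrocyte markers). Tumour 6, next in astrocyte markers at 141 CPM, was the second lowest for APOE. The part of astrocyte RNA in these values was not tested. The log2 difference of APOE was -2.26 without TAZ-4SA tumours 5 and 6.

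CLU was not lower. EV tumours 1 to 3 had 16.8, 30.3 and 27.1 CPM of this gene, which lies on chromosome 8 from 27596917 to 27614700. TAZ-4SA tumours 1, 2, 4, 5 and 6 had 54.1, 42.2, 47.5, 46.5 and 42.8 CPM, all above EV, and tumour 3 had 0.615 CPM from 10 reads. A single tumour therefore sets the fitted log2 difference, which was -0.04 ± 1.18 (SE) with all tumours and 0.95 without TAZ-4SA replicate 3. Its sign also turned without EV replicate 2 (0.13) or EV replicate 3 (0.05), after quantile normalization (0.42), at a pseudocount of 2 CPM (0.19) and with array weights (0.71). TAZ-4SA tumour 3 had 16030692 reads in all, so total depth does not limit that value. That library also had 6790 genes at 0 reads, against 505 to 622 in EV, and their part in this value was not tested.

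Other apolipoprotein genes were few in the table. Of the 8 tested, 2 were called higher, 0 lower and 6 not called. APOL6, an intracellular apolipoprotein L, rose from 8.71 ± 3.29 to 59.0 ± 21.8 CPM (limma adjusted p = 0.002327). APOOL, a mitochondrial inner-membrane protein gene, rose from 10.7 ± 0.691 to 54.4 ± 28.4 CPM (limma adjusted p = 0.02023), a call that was lost when EV replicate 1, 2 or 3 was left out (adjusted p = 0.07008, 0.07794 and 0.0592) or with limma-voom (adjusted p = 0.1404). Of 16 genes of lipoprotein loading and processing and of cholesterol handling or its regulation, 1 was higher and 2 were lower. ABCA1, the exporter that lipidates apolipoproteins, rose from 7.65 ± 5.38 to 101 ± 42.8 CPM (limma adjusted p = 0.001505), although limma-voom did not call it (adjusted p = 0.05522). The lipoprotein lipase gene LPL fell from 36.4 ± 16.9 to 0.675 ± 1.09 CPM (limma adjusted p = 0.005125), with 0 reads in 4 TAZ-4SA tumours.

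CST3 was among the most abundant genes of the EV tumours and lower in every TAZ-4SA tumour. The gene is on chromosome 20 from 23626706 to 23637955 (minus strand), and per kilobase of transcript it ranked between 31 and 54 in EV. In TAZ-4SA it ranked 2634 in tumour 2 and between 84 and 379 in the others. EV tumours 1 to 3 had 807, 1117 and 1073 CPM. In TAZ-4SA tumours 1 to 6 it stood at 186, 22.1, 169, 200, 338 and 105 CPM. Tumour 2 was the lowest and tumour 5 the highest, and no TAZ-4SA value reached EV. The means of 999 ± 168 and 170 ± 105 CPM (SD) gave a log2 difference of -2.92 ± 0.66 (SE), which was -3.19 without TAZ-4SA tumours 5 and 6. The promoter window of CST3 at chr20:23637906-23638205, on the minus strand (GRCh38.p14, RefSeq), is shown beside that of LRP1 as one of a gene with a lower level. It also holds GGGCGG once, in capitals.
CST3: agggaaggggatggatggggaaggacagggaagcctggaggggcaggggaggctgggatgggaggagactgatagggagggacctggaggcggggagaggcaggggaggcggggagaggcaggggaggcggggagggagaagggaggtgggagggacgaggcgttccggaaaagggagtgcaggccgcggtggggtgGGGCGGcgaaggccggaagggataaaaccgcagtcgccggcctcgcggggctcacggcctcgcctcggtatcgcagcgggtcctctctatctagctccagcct

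The cathepsins, lysosomal proteases of which cystatin C inhibits the cysteine class, moved in both directions. Of 13 cathepsin and legumain genes tested, 1 was higher and 5 were lower. CTSC rose from 49.0 ± 5.11 to 240 ± 89.7 CPM (limma adjusted p = 0.0007541). CTSF fell from 291 ± 27.0 to 30.9 ± 17.1 CPM (limma adjusted p = 0.0005948), and the aspartic protease gene CTSD from 496 ± 26.9 to 179 ± 102 CPM (limma adjusted p = 0.01241, and 0.05041 without EV replicate 2). CTSB, an abundant target of cystatin C, had 213 to 233 CPM in EV and 254 to 605 CPM in TAZ-4SA. It missed the threshold (limma adjusted p = 0.05244) and passed it without TAZ-4SA replicate 6 (adjusted p = 0.02594) and under several other alternatives. CTSL ranged from 30.8 to 130 CPM in TAZ-4SA, on both sides of its EV range of 60.9 to 76.0 CPM (limma adjusted p = 0.9289). Among 4 other cystatin family genes tested, CST7, which encodes cystatin F, was higher at 13.3 ± 11.1 against 0.475 ± 0.132 CPM (limma adjusted p = 0.04363). That call was lost without TAZ-4SA replicate 2, 3 or 4 (adjusted p = 0.05312, 0.0516 and 0.05551) and without EV replicate 1, 2 or 3 (adjusted p = 0.1774, 0.1492 and 0.1355). CSTB, the intracellular stefin B, overlapped between the groups, at 36.0 to 49.0 CPM in EV and 22.7 to 66.1 CPM in TAZ-4SA.

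ITIH6 was expressed in EV and close to absent from the TAZ-4SA tumours. It lies on chromosome X from 54748918 to 54798255 (minus strand). The EV tumours had 217, 203 and 183 CPM, while TAZ-4SA tumour 5 had 1.12 CPM from 4 reads and tumour 1 had 0.107 CPM from 2 reads. The remaining TAZ-4SA tumours, 2, 3, 4 and 6, had 0 reads. Over all libraries this is 6 reads in TAZ-4SA and 10947 in EV, so that EV had 2686 times the reads of TAZ-4SA at equal depth (95% interval 1233 to 7320, for counting error only). Without TAZ-4SA tumour 5, which gave 4 of the 6 reads, that ratio was 7695 (95% interval 2130 to 63547), and the ratio of mean CPM, in which each tumour counts equally, was 982. The fitted log2 difference of -9.78 ± 1.19 (SE) depends on the prior and was -6.54 at a pseudocount of 2 CPM.

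ITIH5, its relative on chromosome 10 from 7559270 to 7666966 (minus strand), kept part of its level in most TAZ-4SA tumours. It had 111, 86.2 and 122 CPM in EV and 34.8, 76.5, 61.5, 39.7 and 33.6 CPM in TAZ-4SA tumours 1, 3, 4, 5 and 6. Tumour 2 had 0.101 CPM, a single read. All 6 lay below EV, tumour 3 by little and tumour 2 by a wide margin. The log2 difference was -2.44 ± 1.5 (SE), and -1.17 without TAZ-4SA replicate 2, so 1 tumour carries more than 1 log2 unit of it. TAZ-4SA tumour 2 had the most genes at 0 reads of the 9, at 7365, and their part in this value was not tested.

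The promoter windows of ITIH6 (chrX:54798206-54798505) and ITIH5 (chr10:7666917-7667216), both on the minus strand (GRCh38.p14, RefSeq), are shown because these 2 genes of a family differ in how much RNA remained. Capitals again mark GGGCGG on either strand.
ITIH6: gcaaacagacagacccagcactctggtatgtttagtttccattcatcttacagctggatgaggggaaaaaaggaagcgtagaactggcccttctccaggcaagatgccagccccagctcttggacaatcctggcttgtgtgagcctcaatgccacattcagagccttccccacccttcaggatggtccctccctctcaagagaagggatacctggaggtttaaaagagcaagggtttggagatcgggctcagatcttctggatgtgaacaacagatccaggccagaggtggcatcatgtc
ITIH5: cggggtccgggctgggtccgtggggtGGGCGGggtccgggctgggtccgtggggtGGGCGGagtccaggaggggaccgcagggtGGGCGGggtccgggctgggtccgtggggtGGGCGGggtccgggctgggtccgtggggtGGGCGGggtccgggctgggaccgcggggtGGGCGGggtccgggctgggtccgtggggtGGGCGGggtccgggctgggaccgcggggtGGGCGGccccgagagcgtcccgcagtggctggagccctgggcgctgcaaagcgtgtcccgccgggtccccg
The ITIH5 window holds GGGCGG 8 times, each copy 29 bases after the one before it, within a tandem repeat, and the ITIH6 window holds none. GGGCGG occurs in 45.0% of 35116 RefSeq promoter windows of the same length. The ITIH5 window has 81.7% G and C bases and 34 CpG dinucleotides, the ITIH6 window 52.0% and 2, and 98.6% and 34.8% of all windows have a lower G and C share. In the windows of LRP1 and CST3 the G and C share was 67.0% and 69.7%. None of the 4 windows printed holds GGAATG (the TEAD motif, in 14% of all windows), TGANTCA (AP-1, 7.71%), ACAAAG or ACAATG (SOX cores, 16.1% and 10.8%) or TATAAA (the TATA box, 11.5%) on either strand. Promoter windows were available for 5 of the 8 genes, and APOE, the fifth, has 3 windows, which are not printed. Its window at chr19:44906151-44906450 (plus strand) holds GGAATG 2 times and the other APOE windows do not. A match or its absence describes only the letters in these windows.

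Genes that make, bind or cut hyaluronan, and the other ITIH genes, numbered 16 tested, with 3 higher, 4 lower and 9 not called. The hyaluronan receptor gene CD44 rose from 97.6 ± 14 to 309 ± 69.9 CPM (limma adjusted p = 0.001688), and HMMR, a hyaluronan-binding mitotic protein gene, from 9.96 ± 2.00 to 66.0 ± 37.3 CPM (limma adjusted p = 0.004214). PTX3, a pentraxin that binds ITIH heavy chains in the hyaluronan matrix, rose from 4.11 ± 1.45 to 41.9 ± 15.2 CPM (limma adjusted p = 0.002365). ITIH4 fell from 4.39 ± 0.536 to 0.157 ± 0.337 CPM (limma adjusted p = 0.008989), with 0 reads in 4 TAZ-4SA tumours, and was not called without EV replicate 1 or 2 (adjusted p = 0.05161 and 0.05706) or after quantile normalization (adjusted p = 0.2987). ITIH3 was listed in 1 TAZ-4SA tumour at 1.68 CPM and in EV at 0.116 to 0.838 CPM, under the filter.

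Other extracellular protease inhibitors divided as well. Of 22 tested, 9 fell, 3 rose and 10 were not called. SERPINA3, alpha-1-antichymotrypsin, an acute-phase inhibitor also made by astrocytes, fell from 2368 ± 774 to 42.5 ± 36.2 CPM (limma log2 difference -6.17 ± 0.60, adjusted p = 3.219e-05). SERPINA5, the protein C inhibitor, fell from 222 ± 46.2 to 7.12 ± 8.67 CPM (limma adjusted p = 0.003585), with a log2 difference of -5.97 that was -5.35 without TAZ-4SA replicate 1, and SERPINE2, protease nexin 1, from 1094 ± 96.0 to 175 ± 110 CPM (limma adjusted p = 0.001336). TFPI, an inhibitor of tissue factor that binds LRP1, rose from 10.03 ± 3.38 to 111 ± 31.4 CPM (limma adjusted p = 0.0001429). Of the metalloprotease inhibitors, TIMP1 fell from 504 ± 54.1 to 182 ± 56.5 CPM (limma adjusted p = 0.004116) and TIMP2 rose from 456 ± 37.3 to 872 ± 147 CPM (limma adjusted p = 0.009657, and 0.07216 without EV replicate 2).

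**Figure D4:**
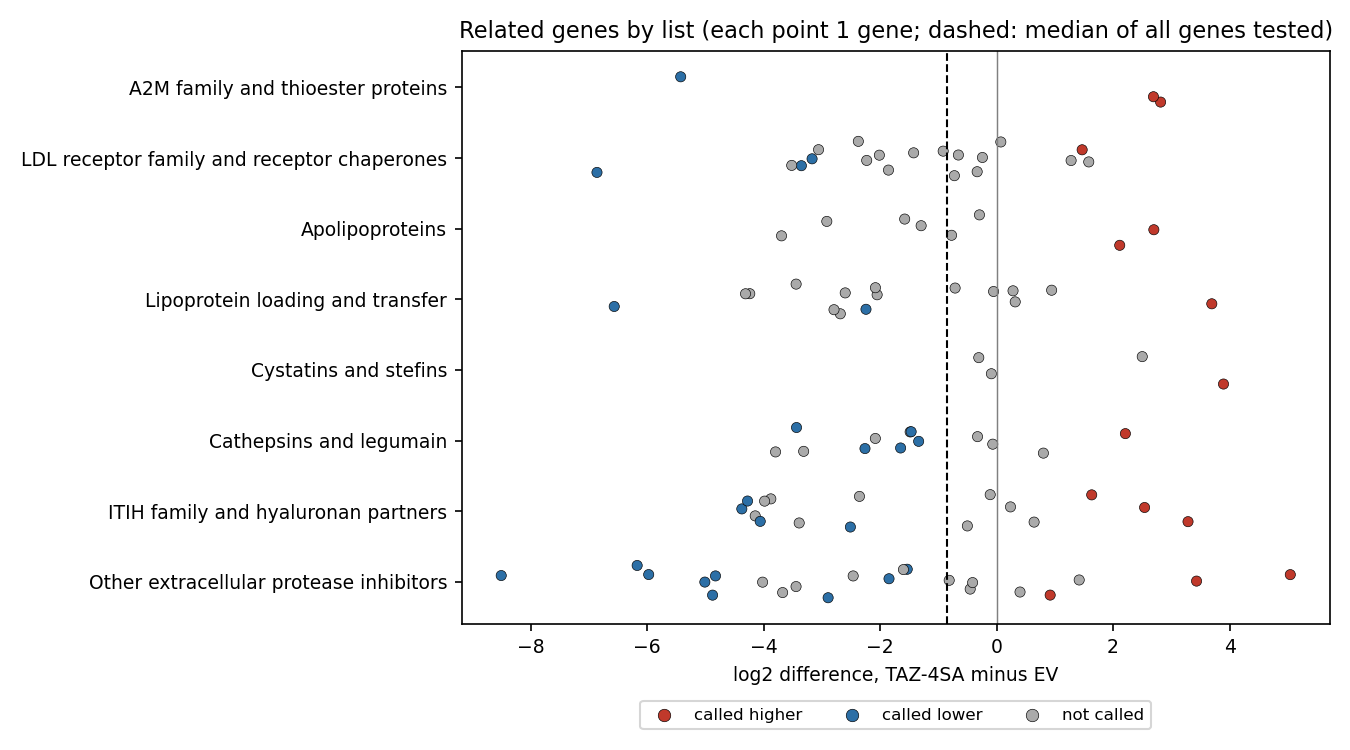
Log2 difference, TAZ-4SA minus EV (horizontal axis), of the 101 related genes tested, by list (vertical axis); red points were called higher, blue lower and grey not called, and the dashed line is the median of all genes tested. The protease inhibitors have 9 blue and 3 red points, and the apolipoproteins 2 red and no blue.

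Over the 8 related lists, 14 of 101 genes tested were called higher (13.9%) and 24 lower (23.8%), beside 9.02% and 13.3% of all genes tested. Their median log2 difference was -1.58, beside -0.85. Because the lists were chosen with earlier results of these data known, nothing is read from these shares or medians. Without TAZ-4SA tumours 5 and 6 the counts were 16 and 33, without TAZ-4SA tumours 2, 3 and 4 they were 15 and 28, and without EV replicate 2 they were 10 and 15.

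For each member the 3 genes whose log2 CPM followed it most closely over the 9 tumours were taken from 11752 genes averaging 5 CPM or more. Pearson's r is a description here, since it includes the difference between the groups and the libraries share their depth and their genes at 0 reads. LRP1 was closest to LIMK1 (r = 0.985), SDC1 (0.967) and JADE2 (0.932), genes that range from 55.9 to 166, from 69.4 to 520 and from 42.3 to 163 CPM in TAZ-4SA. ITIH6 was closest to WSCD1, RLBP1 and ACAN (r = 0.997 for each), all at 1.12 CPM or less in TAZ-4SA, and APOD to CPVL (0.978), RPL32 (0.974) and BMP8B (0.971). CST3 was closest to EHBP1L1 (0.993), GLG1 (0.989) and SHISA4 (0.987), APOE to ADGRA2 (0.988), SLC29A1 (0.981) and PLD2 (0.980), and A2M to MST1P2 (0.990), AHSA1 (0.978) and ANXA9 (0.971). CLU was closest to TMX1, FAM174A and ABHD5 (r = 0.993, 0.989 and 0.987), each at 0 CPM in at least 1 TAZ-4SA tumour, and ITIH5 to CRAT, CHST10 and RNF25 (0.994, 0.993 and 0.992). Within the 6 TAZ-4SA tumours the members did not share 1 order. CST3 and ITIH5 had the highest r of any member pair (0.914), both with tumour 2 lowest. There ITIH5 had 0.101 CPM, a single read, against 33.6 to 76.5 CPM in the others. Their highest tumours differed, tumour 5 for CST3 and tumour 3 for ITIH5. LRP1 and APOD had the lowest r (-0.761), the tumours highest for LRP1 (3 and 5) being the 2 lowest for APOD.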

How the data were processed

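RNA from 9 intracranial LN229 tumours was extracted with TRIzol and made into libraries with a SMART-Seq mRNA kit and Nextera XT, per the labels' protocols. This chemistry does not keep the strand. HISAT2, edgeR and GRCh38 are named without roles per the submitters' processing notes. How reads were counted and filtered, and whether mouse reads were removed, is not given in the sources used here. For 18364 genes the deposited values are log2 CPM, made by the authors. The unit was read from the values: the lowest is -2.79 in all 9 tumours (0.145 CPM), and after its removal 100% of values under 5000 reads were whole multiples of 1 step per tumour within 0.1 read, which gave reads and CPM. The range of totals is in the report; 3 reads are 0.108 to 0.917 CPM, and intervals and floors cover counting error only.

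Tumours were grouped from the labels as TAZ-4SA (n = 6) and EV (n = 3). As nothing ties them to separate animals, p-values measure only the sample-to-sample spread, which may be technical. The limma fit (version 3.58.1, under R 4.3.3; trended variance, robust empirical Bayes) used the deposited log2 values of the 15578 genes that averaged 1 CPM or more, prior included, with Benjamini-Hochberg adjustment at 0.05 over all of them. Differences are TAZ-4SA minus EV on that log2 scale, and for genes near the prior they depend on it. There they can understate the change or, where only some tumours are at 0 reads, as for A2M, exceed the ratio of means. Lengths are those of the transcript with the longest coding part in GENCODE 29 (GRCh38), found for 82.3% of genes, and coordinates are from RefSeq GRCh38.p14, which held all 8 members. The members, the 8 related lists (115 of 144 genes in the table) and the marker lists were chosen with earlier results of these data known. Genes named are the members, up to 4 called genes per direction in each related list, a fixed set of receptors, carriers and inhibitors, and the 3 genes most correlated with each member; not every one is printed, and some are not reported here. Alternatives were a replicate block, limma-voom on recovered reads, array weights, no robust step, a filter at 10 CPM or none, quantile normalization, median-of-ratios scaling, pseudocounts of 0.1 or 2 CPM, and leaving out each tumour, or TAZ-4SA tumours 2, 3 and 4 together. Leaving out TAZ-4SA tumours 5 and 6 was added after seeing the data.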

Additional observations from a re-analysis of the deposited data

Results flagged for a closer look

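Among the 58 genes examined (the members and the named related genes), 18 had 1 TAZ-4SA tumour whose log2 value stood apart from the other 5 by more than 0.625 of the whole range of the 6. Chance flags about 1 in 20 groups of normally distributed values, a rate that does not hold for C5, ITIH3, LRP3 and WFDC1, whose reads came from a single tumour. Of these, 8 were in tumour 2, 7 in tumour 5, 2 in tumour 3 and 1 in tumour 4.

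Tumour 3 had 0.615 CPM of CLU (others 42.2 to 54.1) and 0 CPM of APOL1 (others 16.2 to 27.0). Tumour 2 had 0.101 CPM of ITIH5 (others 33.6 to 76.5), 21.5 CPM of ABCA1 (86.9 to 140), 17.0 CPM of LRPAP1 (44.0 to 67.4), 5.25 CPM of SCARB1 (27.5 to 69.9) and 64.9 CPM of TIMP3 (153 to 240). It also had 0 CPM of PLTP (6.61 to 67.2) and of VLDLR (17.9 to 60.1), and 0.101 CPM of WFDC1, a single read where the others had none. Tumour 5 had reads where the other TAZ-4SA tumours had few or none, at 1.12 CPM of ITIH6, 0.560 CPM of C5, 1.68 CPM of ITIH3, 0.840 CPM of ITIH4 and 3.92 CPM of LRP3. It was low for CD44, at 185 CPM (others 301 to 400), and for TFPI, at 50.4 CPM (others 108 to 135). Tumour 4 had 0 CPM of CTSS (others 2.93 to 19.0). Tumour 2 had the most genes at 0 reads of the 9 libraries. Tumour 5 had the second fewest reads and, at 2990, the fewest genes at 0 reads of the TAZ-4SA libraries. The part of these library traits in the values was not tested.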

How the results depend on the processing

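Of all genes tested, 1405 were called higher and 2079 lower. The higher count was 2531 with array weights and 604 with the replicate block, and ran from 799 to 1685 as single tumours were left out. The lower count was 3384 with no filter, 967 with a filter at 10 CPM (fewer genes tested), 5630 with array weights and 3646 with limma-voom, and ran from 852 to 2688 as single tumours were left out. After quantile normalization the split was 1920 higher and 1624 lower. For the related genes the lower count of 24 was 44 with array weights and ran from 15 to 30 as single tumours were left out, while the higher count of 14 stayed between 10 and 19. Among the members, the log2 difference of ITIH6 was -6.54 at a pseudocount of 2 CPM and -10.92 with limma-voom. The other members moved by less than 1 SD under every alternative run, although CLU changed sign. This SD is that of each gene's log2 CPM within the groups, pooled, so it allows wide shifts where tumours spread widely. For A2M, whose SD among the TAZ-4SA tumours was 3.88, the difference was -7.64 at a pseudocount of 2 CPM and -10.93 with the replicate block. Of the 33 named related genes called, 22 stayed called with each tumour left out in turn. The cause of these shifts was not tested. Same-numbered tumours of the 2 groups did not deviate together (correlations 0.0313, 0.00372 and -0.0471), so the replicate block gives only 11 higher and 24 lower related genes as a check. Its differences rest on tumours 1 to 3 of each group, because TAZ-4SA tumours 4, 5 and 6 have no EV tumour of the same number. TAZ-4SA tumours 5 and 6, with 3299325 and 3144861 reads, limit what can be seen under 1 CPM.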
